A study of Mus musculus with 6 samples.

Results

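The 39 genes described here act in mitosis: they drive entry into it, build the spindle and the kinetochores, guard the metaphase checkpoint and split the cell. They were chosen by name, as mitotic entry, kinetochore, checkpoint and spindle genes, and all 39 were found by symbol among the 23420 genes of the count files. The tissue was the part of the mouse palate that forms the anterior hard palate, dissected at E14.5 from C57BL/6 embryos. Controls had the genotype Shox2Cre/+;Nkx2.5F/F, with 1 Cre allele at Shox2 and a wild-type Shox2 allele. Mutants had the genotype Shox2Cre/-;Nkx2.5F/F, with a null allele in place of the wild-type one. Both groups therefore carried the Cre allele and a homozygous floxed Nkx2.5 gene, which Cre can delete where Shox2 is expressed, and the control libraries, titled WT, were not wild type. Each group had 3 RNA sequencing libraries, numbered 1 to 3 and listed in that order below. How many embryos went into each is not stated, so p-values measure only the spread between libraries, which may be technical.

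A dividing cell enters mitosis when cyclin B and the kinase CDK1 become active, after which Polo and Aurora kinases separate the centrosomes and attach chromosomes to the spindle. The spindle checkpoint holds the cell until every kinetochore is attached, and the anaphase-promoting complex then destroys cyclin B and securin. Transcripts of these genes are made mainly in late cell cycle phases, so in tissue RNA they are commonly read as markers of proliferation. Palatal shelves grow by division of their mesenchyme before and during the stage sampled here.

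Mitosis and spindle genes were lower in the mutant tissue, by small amounts. In bulk tissue, fewer dividing cells and less of these transcripts per dividing cell cannot be told apart. Of the 39 genes, 28 fell, 0 rose and 11 did not pass the test (edgeR quasi-likelihood F test, Benjamini-Hochberg adjusted p under 0.05 over all 16604 genes tested). The 28 are 71.8% of the genes, where 21.7% of all genes tested were called lower, 24.1% higher and 45.8% in either direction. At an unadjusted p under 0.05, 33 were lower and 0 higher, and DESeq2 and limma-voom also called 0 higher. The median log2 fold change was -0.47, a level of 0.722 times the control, against a median of -0.004 over all genes tested. Single values ran from -0.76 for Spc25 to 0.05 for Anln, and 38 of 39 were below 0. No member changed 2-fold, whereas 20.2% of all tested genes had an estimated change over 2-fold. Every mutant library lay below every control library for 32 of the 39 genes (82.1%, against 29.2% of all genes tested), and the groups overlapped for the other 7. Mutants lay above the controls for 0 of the 39, and for 29.7% of all genes tested. In a test against a 1.2-fold change 20 of the 39 were called lower, and 11.7% of all genes tested.

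**Figure D1:**
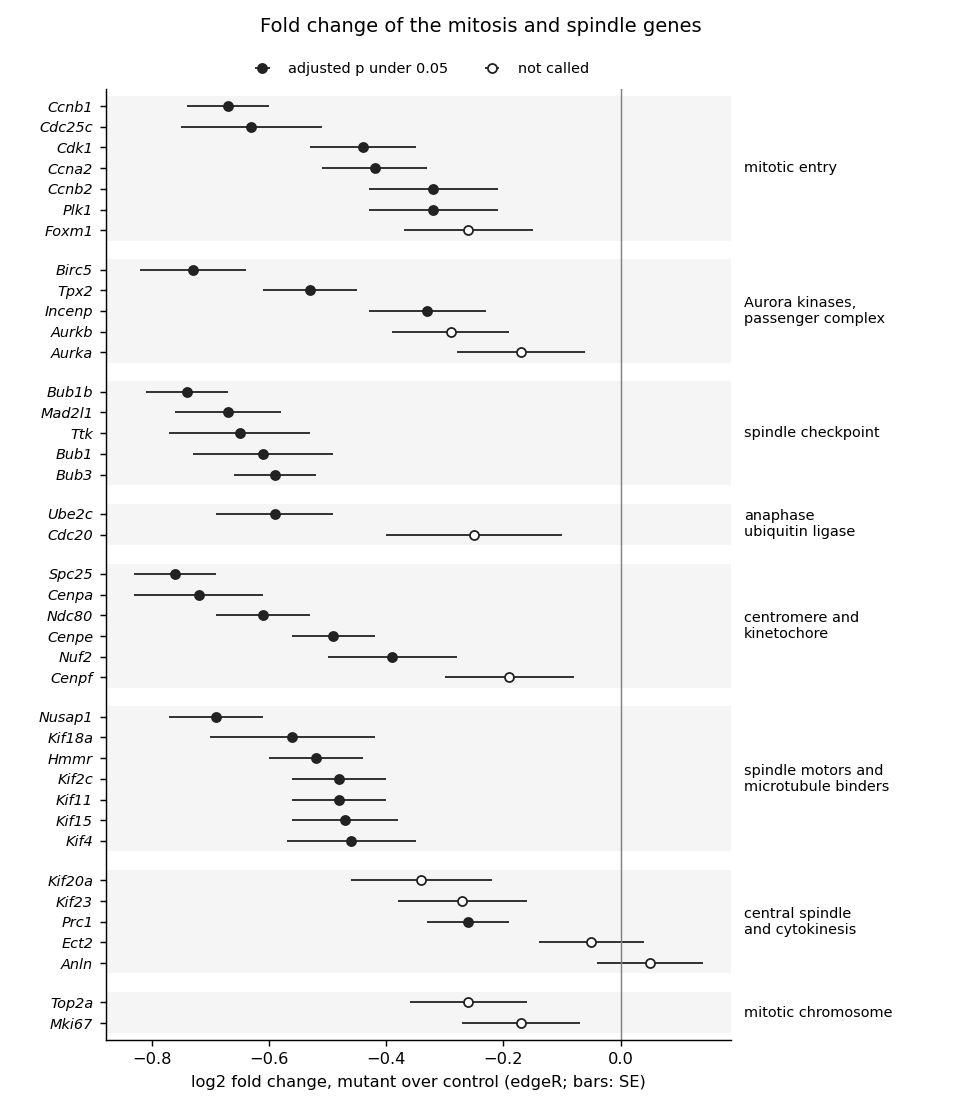
Log2 fold change of each gene, mutant over control, with its standard error from edgeR (3 libraries a group), grouped by role. Filled points passed the adjusted p threshold of 0.05: all 5 checkpoint genes and all 7 spindle motors and microtubule binders are filled, while 4 of 5 cytokinesis genes are open. Differences between roles were not tested.

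**Figure D2:**
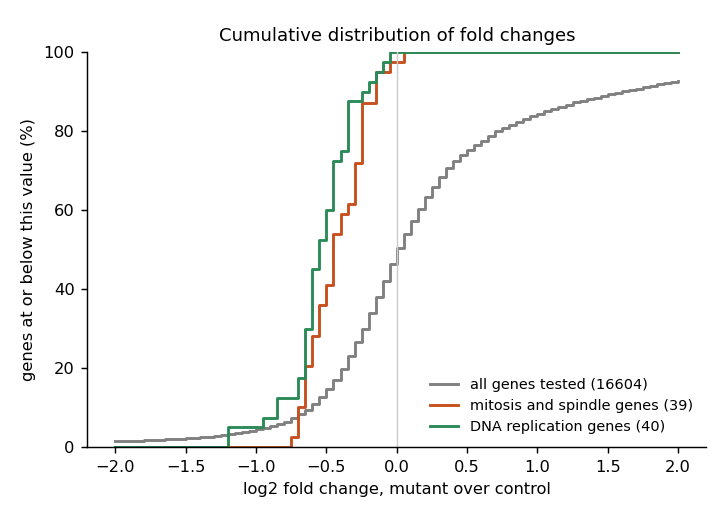
Share of genes (vertical axis, percent) at or below each log2 fold change (horizontal axis) for the 39 mitosis and spindle genes, 40 DNA replication genes and all 16604 genes tested. Both cell cycle curves rise steeply below 0 and reach 100% close to it, while the curve of all genes is centred at 0 and far wider.

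The libraries differed in depth along the groups, with 81950407 to 134813429 counts in the controls and 52668242 to 53331397 in the mutants. All 39 genes had at least 825 counts in every library, so counting error was small for each. Y-linked genes had a mean log2 CPM of 3.09 to 5.46 in the controls and 5.58 to 5.82 in the mutants. Shox2 checked the labels: its level was 68.2 to 88.2 CPM (the count relative to library size, scaled with TMM) in the controls and 3.13 to 5.3 CPM in the mutants. Mutant replicate 1 stood apart in its counts. Of its counts between 5 and 50, 99.7% were even numbers, against 63.6% to 73.0% in the other 5 libraries. It was also the highest mutant library for 38 of the 39 genes, the exception being Kif18a. Its median over the genes was 0.26 log2 units above the other mutants, where the median over all genes was -0.02. Set against the control mean, the median over the genes was -0.31 in mutant replicate 1, -0.55 in mutant replicate 2 and -0.51 in mutant replicate 3. All 39 genes were below the control mean in mutant replicates 2 and 3, and 6 were above it in mutant replicate 1. Without that library 37 of the 39 were called lower, where 21.6% of all genes tested were.

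**Figure D3:**
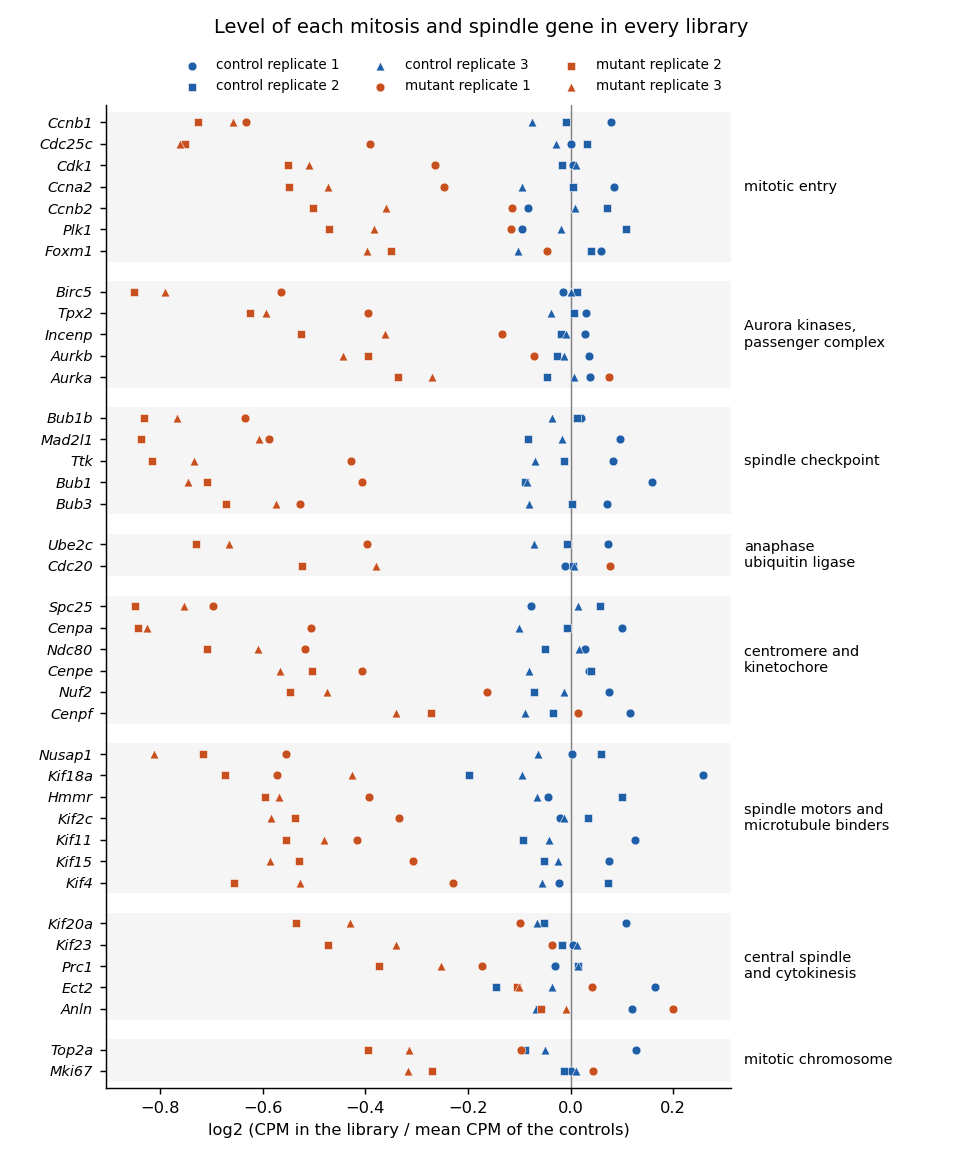
Level of each gene in each of the 6 libraries, as log2 of its CPM over the control mean; 0 is the control mean. Circles of mutant replicate 1 lie to the right of the other mutants in 38 of 39 genes and overlap the controls for Foxm1, Aurka, Cdc20, Cenpf, Anln, Ect2 and Mki67.

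Short words known from late cell cycle promoters were common in the promoter windows of these genes. The choice of members did not use the words. Since genes of this kind are where the words are known from, their shares are given as a description. Many late cell cycle promoters hold a cell cycle genes homology region, or CHR, bound by MuvB-type complexes, and CCAAT boxes bound by NF-Y. RefSeq windows on GRCm38.p6, from 250 bases before to 50 after a start, were matched for 32 of the 39 genes as 35 windows. Bub3, Ect2 and Prc1 had 2 starts each, with overlapping windows. Windows for Ccna2, Cdc25c, Foxm1, Tpx2, Aurkb, Incenp and Kif20a were not used here. The CHR word TTTGAA, on either strand, was in 27 of 35 windows (77.1%), against 17.9% of all 32851 windows and 12.2% of the windows of tested genes. CCAAT, on either strand, was in 26 of 35 (74.3%) against 37.4%. Both words were in 23 of 35 windows (65.7%) against 7.0% of all, and no hit of one shared a base with a hit of the other in the 35. The related words TTCGAA and TTTAAA were in 3 and 9 of the 35 windows (8.6% and 25.7%, against 1.6% and 13.2% of all). GGCGGGAA, an E2F-type word, was in 0 of 35 and in 2.2% of all.

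Stretches just before the start are printed for 11 genes, 5′ to 3′ (GRCm38.p6; for Bub3, Ect2 and Prc1, 1 of 2 starts), to show the words beside the fold changes: 7 of these genes fell and 4 did not pass. Capitals mark the CHR words TTTGAA and TTCGAA and the CCAAT box, on either strand, so a CHR may also read TTCAAA here. Cdk1, Ccnb1, Bub3, Ube2c, Spc25, Kif11 and Prc1 fell, and Cdc20, Ect2, Top2a and Mki67 did not pass.
Cdk1 (chr10:69352913-69353042, minus strand): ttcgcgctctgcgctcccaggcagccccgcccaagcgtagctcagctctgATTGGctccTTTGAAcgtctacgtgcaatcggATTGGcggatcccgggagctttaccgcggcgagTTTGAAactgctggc
Ccnb1 (chr13:100786487-100786616, minus strand): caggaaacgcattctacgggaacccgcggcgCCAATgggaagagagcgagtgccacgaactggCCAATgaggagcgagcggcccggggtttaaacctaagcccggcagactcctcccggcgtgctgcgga
Bub3 (chr7:131560240-131560369, plus strand): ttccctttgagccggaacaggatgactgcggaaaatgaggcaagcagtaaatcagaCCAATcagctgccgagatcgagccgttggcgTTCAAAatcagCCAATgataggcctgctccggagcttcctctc
Ube2c (chr2:164769799-164769928, plus strand): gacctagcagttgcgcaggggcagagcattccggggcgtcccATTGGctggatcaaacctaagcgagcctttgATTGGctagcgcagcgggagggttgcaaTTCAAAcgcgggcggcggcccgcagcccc
Spc25 (chr2:69206214-69206343, minus strand): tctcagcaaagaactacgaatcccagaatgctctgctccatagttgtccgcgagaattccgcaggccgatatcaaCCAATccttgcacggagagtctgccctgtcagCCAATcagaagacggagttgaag
Kif11 (chr19:37376252-37376381, plus strand): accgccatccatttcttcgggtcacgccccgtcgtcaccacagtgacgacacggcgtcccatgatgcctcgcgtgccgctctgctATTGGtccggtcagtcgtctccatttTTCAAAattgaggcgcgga
Prc1 (chr7:80294346-80294475, plus strand): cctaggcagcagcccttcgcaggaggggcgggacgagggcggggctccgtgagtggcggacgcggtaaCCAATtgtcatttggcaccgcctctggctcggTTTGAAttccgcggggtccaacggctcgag
Cdc20 (chr4:118437344-118437473, minus strand): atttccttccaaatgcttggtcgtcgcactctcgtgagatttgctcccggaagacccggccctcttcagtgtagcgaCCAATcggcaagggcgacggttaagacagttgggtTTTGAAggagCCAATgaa
Ect2 (chr3:27153879-27154008, minus strand): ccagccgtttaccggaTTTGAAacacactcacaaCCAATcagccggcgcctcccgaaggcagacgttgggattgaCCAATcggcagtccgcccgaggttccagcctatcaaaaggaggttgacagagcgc
Top2a (chr11:99024190-99024439, minus strand): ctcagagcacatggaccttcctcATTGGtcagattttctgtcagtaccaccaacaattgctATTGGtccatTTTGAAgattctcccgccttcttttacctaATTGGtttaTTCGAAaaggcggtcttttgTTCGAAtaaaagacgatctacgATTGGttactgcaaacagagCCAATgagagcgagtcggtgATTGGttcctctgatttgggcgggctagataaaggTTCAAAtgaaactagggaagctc
Mki67 (chr7:135716380-135716629, minus strand): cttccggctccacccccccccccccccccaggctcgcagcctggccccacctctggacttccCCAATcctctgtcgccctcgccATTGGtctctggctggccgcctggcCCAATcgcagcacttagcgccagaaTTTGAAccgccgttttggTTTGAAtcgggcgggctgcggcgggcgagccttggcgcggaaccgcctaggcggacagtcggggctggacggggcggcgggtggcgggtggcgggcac
The CHR word was not limited to genes that fell. It was in the windows of 16 of the 24 called genes with a window and in those of 8 of the 8 that were not called. CCAAT was in the windows of 16 of the 24 and 7 of the 8. In 14 genes a CHR word began after the start, outside the printed stretches, as in Spc25. Of the 35 windows, 7 held 2 CCAAT words 31 to 34 bases apart from first base to first base (20.0%, against 1.2% of all windows), a spacing chosen after the windows were seen; Ccnb1, Cdk1 and Spc25 are among them. Neither TTTGAA nor CCAAT was found in the windows of Birc5, Nusap1, Mad2l1, Kif18a and Nuf2, all of which fell. Absence of a word holds only for the windows searched. The Mad2l1 window (chr6:66534971-66535270) ended before the GENCODE start of that gene (66535390). Windows of Kif2c and Kif4 also missed the GENCODE gene start. Bases after the start were found in a GENCODE transcript of the gene for 30 of the 35 windows.

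**Figure D4:**
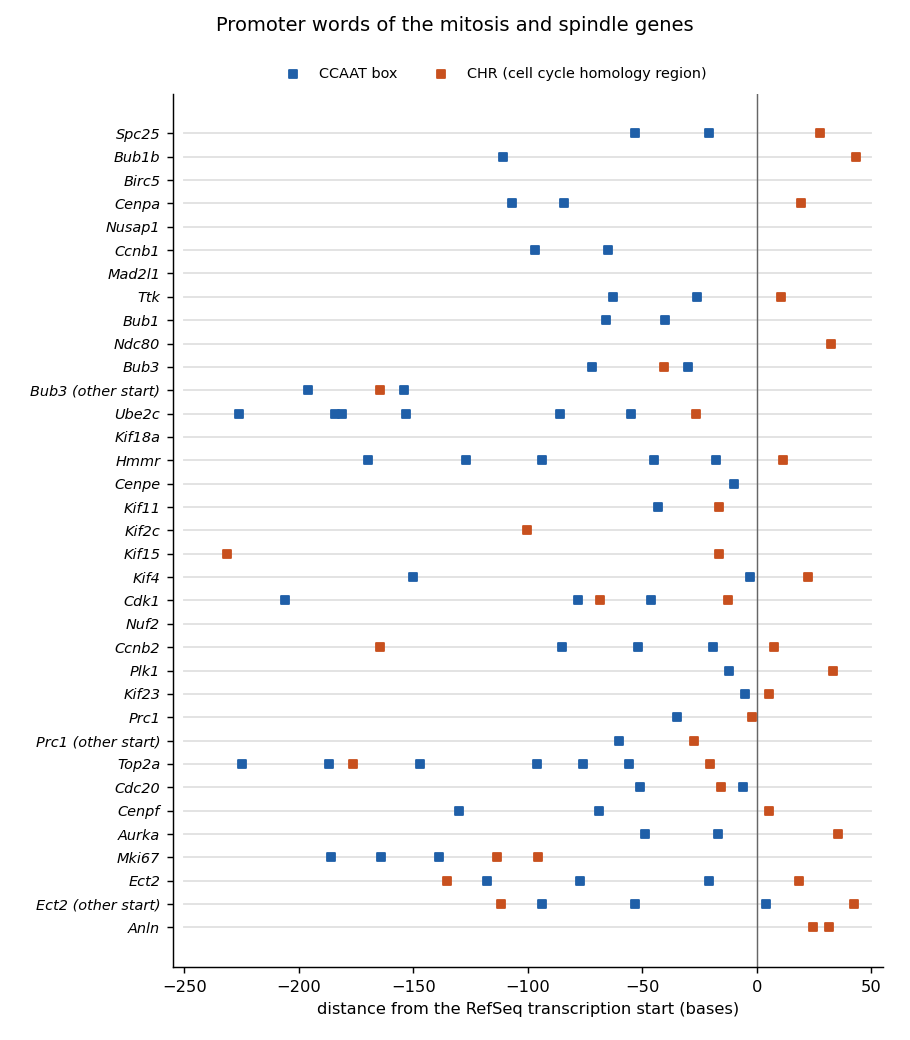
Positions of CHR words (orange) and CCAAT boxes (blue) in the 35 promoter windows, in bases from the RefSeq start, with genes ordered from the largest fall (top) to the highest fold change (bottom). CHR words gather near the start and CCAAT boxes before it, and both words occur in genes at the top and at the bottom. Birc5, Nusap1, Mad2l1, Kif18a and Nuf2, all of which fell, hold neither in the windows searched.

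Among regulators of mitotic entry, 6 of 7 genes fell, with a median log2 fold change of -0.42. Ccnb1, which encodes the cyclin that activates CDK1 at mitosis, had 151, 142 and 135 CPM in the 3 controls and 92.0, 86.2 and 90.3 CPM in the 3 mutants. The groups were well apart and the mutants agreed closely. The group means were 143 ± 7.69 CPM for controls and 89.5 ± 2.97 CPM for mutants (SD, n = 3 each; log2 fold change -0.67, SE 0.07, edgeR adjusted p = 0.000446), a level 37.2% lower. Cdk1, the kinase itself, had 162, 159.5 and 163 CPM in the 3 controls and 134, 110.1 and 113 CPM in the 3 mutants. All 3 mutants were below the controls, which were nearly equal (log2 fold change -0.44, SE 0.09, edgeR adjusted p = 0.00568). Cdc25c, the phosphatase that activates CDK1, fell with a log2 fold change of -0.63 (SE 0.12), and Ccna2, cyclin A2, with one of -0.42 (SE 0.09). Ccnb2, the second B cyclin (-0.32, SE 0.11, edgeR adjusted p = 0.0431), and Plk1, the Polo kinase (-0.32, SE 0.11, adjusted p = 0.0439), passed narrowly. Neither passed without control replicate 2 or 3 or mutant replicate 2 or 3, with adjusted p from 0.103 to 0.126 for Ccnb2 and from 0.0927 to 0.138 for Plk1. Foxm1, a transcription factor of mitotic genes, did not pass (-0.26, SE 0.11, adjusted p = 0.0837; 0.00896 without mutant replicate 1).

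Of the Aurora kinases and their partners 3 of 5 genes fell, and the kinases themselves did not pass. Birc5, survivin, a subunit of the chromosomal passenger complex, had 92.9, 94.6 and 93.9 CPM in the 3 controls and 63.4, 52.0 and 54.2 CPM in the 3 mutants. The controls were nearly equal and all mutants far below them. Group means were 93.8 ± 0.88 CPM for controls and 56.5 ± 6.07 CPM for mutants (log2 fold change -0.73, SE 0.09, edgeR adjusted p = 0.000755). Tpx2, a spindle protein that activates Aurora A, had 187, 184 and 178 CPM in the 3 controls and 139, 119 and 121 CPM in the 3 mutants, again with no overlap (log2 fold change -0.53, SE 0.08, edgeR adjusted p = 0.00173). Incenp, the scaffold of the passenger complex, fell with a log2 fold change of -0.33 (SE 0.10, adjusted p = 0.0304). That call was lost when any 1 library other than mutant replicate 1 was left out, with adjusted p from 0.0554 to 0.0892. Aurka, Aurora A, had 65.7, 62.0 and 64.3 CPM in the 3 controls and 67.4, 50.7 and 53.1 CPM in the 3 mutants. Mutant replicate 1 was above every control while the other mutants were below them (log2 fold change -0.17, SE 0.11, edgeR adjusted p = 0.261). Aurkb, the kinase of the passenger complex, had a log2 fold change of -0.29 (SE 0.10, adjusted p = 0.0539) although its groups did not overlap. Without mutant replicate 1 both kinases were called lower (adjusted p = 0.0115 for Aurka and 0.00342 for Aurkb).

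All 5 spindle checkpoint genes fell, with a median log2 fold change of -0.65, and all 5 were called under each of the 19 alternative settings. Bub1b, which encodes the checkpoint protein BUBR1 (chr2:118598211-118641591, plus strand, GENCODE M21 on GRCm38), had 140.5, 139.8 and 135 CPM in the 3 controls and 89.2, 77.8 and 81.4 CPM in the 3 mutants. The groups were far apart. Group means were 138 ± 2.93 CPM for controls and 82.8 ± 5.85 CPM for mutants (log2 fold change -0.74, SE 0.07, edgeR adjusted p = 0.000403). Bub3, its binding partner at the kinetochore, had 168, 159.7 and 151 CPM in the 3 controls and 111, 100 and 107 CPM in the 3 mutants, with no overlap (log2 fold change -0.59, SE 0.07, edgeR adjusted p = 0.000808). Mad2l1, which encodes MAD2, the inhibitor of the anaphase-promoting complex (-0.67, SE 0.09), and Ttk, the MPS1 kinase that starts checkpoint signalling (-0.65, SE 0.12), fell too. Bub1, the kinase that recruits other checkpoint proteins, had a log2 fold change of -0.61 (SE 0.12).

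The anaphase-promoting complex works with an activator and a ubiquitin-conjugating enzyme, and 1 of these 2 partners fell; the difference between them was not tested. Ube2c, the conjugating enzyme, had 124, 117 and 112 CPM in the 3 controls and 89.3, 70.9 and 74.1 CPM in the 3 mutants, and every mutant was lower (log2 fold change -0.59, SE 0.10, edgeR adjusted p = 0.00285). Cdc20, the activator, had 120.0, 121 and 121 CPM in the 3 controls and 128, 84.1 and 92.9 CPM in the 3 mutants. Here the controls were nearly equal, mutant replicate 1 was above them and the other mutants were lower (log2 fold change -0.25, SE 0.15, edgeR adjusted p = 0.196). Without mutant replicate 1 Cdc20 was called lower (adjusted p = 0.00357).

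Of the centromere and kinetochore genes 5 of 6 fell, with a median log2 fold change of -0.55. Spc25, a subunit of the NDC80 complex that binds microtubules (chr2:69193895-69206194, minus strand, GENCODE M21 on GRCm38), had 56.4, 61.9 and 60.1 CPM in the 3 controls and 36.7, 33.0 and 35.3 CPM in the 3 mutants. It had the lowest fold change of the 39 genes, and the groups were far apart. Group means were 59.5 ± 2.79 CPM for controls and 35.0 ± 1.84 CPM for mutants (log2 fold change -0.76, SE 0.07, edgeR adjusted p = 0.000432), a level 41.1% lower. Ndc80, which encodes the subunit that touches the microtubule, had 42.3, 40.1 and 42.0 CPM in the 3 controls and 29.0, 25.4 and 27.2 CPM in the 3 mutants, also without overlap (log2 fold change -0.61, SE 0.08, edgeR adjusted p = 0.00127). Nuf2, its partner in the same complex, fell as well (-0.39, SE 0.11, adjusted p = 0.0256). The Nuf2 call was lost without control replicate 1 or 3 or mutant replicate 2 or 3 (adjusted p from 0.0541 to 0.0855), and with the GC and length correction (adjusted p = 0.0932). Cenpa, the histone that marks centromeres (-0.72, SE 0.11), and Cenpe, a kinetochore motor (-0.49, SE 0.07), fell. Cenpf, a large kinetochore protein, had a log2 fold change of -0.19 (SE 0.11, adjusted p = 0.182; 0.0232 without mutant replicate 1).

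All 7 spindle motors and microtubule binders fell, with fold changes in a narrow band and a median of -0.48 on the log2 scale. Nusap1, a protein that bundles spindle microtubules, had 117, 122 and 112 CPM in the 3 controls and 79.4, 70.9 and 66.4 CPM in the 3 mutants, with no overlap (log2 fold change -0.69, SE 0.08, edgeR adjusted p = 0.000796). Hmmr, a spindle assembly factor, had 75.4, 83.3 and 74.3 CPM in the 3 controls and 59.2, 51.4 and 52.4 CPM in the 3 mutants, and each mutant was lower than each control (log2 fold change -0.52, SE 0.08, edgeR adjusted p = 0.00246). The motors ran from -0.56 (SE 0.14) for Kif18a, which dampens chromosome movement, to -0.46 (SE 0.11) for Kif4, a motor on chromosome arms. Between them lay Kif2c, which takes microtubules apart at their ends (-0.48, SE 0.08), Kif11, which pushes spindle poles apart (-0.48, SE 0.08), and Kif15, which works beside it (-0.47, SE 0.09). Leaving out mutant replicate 2 ended the call of Kif18a (adjusted p = 0.061), and leaving out mutant replicate 3 that of Kif4 (adjusted p = 0.0524).

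Of the genes of the central spindle and of cytokinesis 1 of 5 fell, with a median log2 fold change of -0.26. Over all genes tested 21.7% were called lower. Every mutant was below every control for 3 of the 5, and for 29.2% of all genes tested. Differences between roles were not tested. Prc1, which bundles the microtubules of the central spindle, had 128, 132 and 132 CPM in the 3 controls and 116, 101 and 109.5 CPM in the 3 mutants. The groups did not overlap, with a narrow gap (log2 fold change -0.26, SE 0.07, edgeR adjusted p = 0.0178). The Prc1 call was lost without control replicate 2 (adjusted p = 0.0562), control replicate 3 (0.0624) or mutant replicate 2 (0.0617), and likewise with the GC and length correction (0.218). Kif20a, a motor that brings passenger proteins to the midzone, had 130.3, 117 and 116 CPM in the 3 controls and 113, 83.4 and 89.7 CPM in the 3 mutants, and its adjusted p of 0.05 was at the threshold without passing it (log2 fold change -0.34, SE 0.12). Kif23, the motor of centralspindlin, did not pass (-0.27, SE 0.11, adjusted p = 0.0808). Both motors were called without mutant replicate 1 (adjusted p = 0.00526 for Kif20a and 0.00473 for Kif23).

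Anln and Ect2, the remaining cytokinesis genes, overlapped between the groups. Anln, anillin, which scaffolds the contractile ring, had 107, 94.7 and 94.3 CPM in the 3 controls and 114, 94.9 and 98.2 CPM in the 3 mutants. Only mutant replicate 1 was above the controls (log2 fold change 0.05, SE 0.09, edgeR adjusted p = 0.689). Ect2, which activates RhoA at the cleavage site, had 72.9, 58.8 and 63.4 CPM in the 3 controls and 66.9, 60.5 and 60.6 CPM in the 3 mutants. The mutants lay inside the range of the controls (log2 fold change -0.05, SE 0.09, edgeR adjusted p = 0.673). Without mutant replicate 1 neither was called, and they were the only 2 of the 39 genes of which this was so.

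The pair of mitotic chromosome genes, both often used to count dividing cells, did not pass. Mki67, which encodes the coat protein Ki-67, had 477, 473 and 480.2 CPM in the 3 controls and 491, 395 and 382 CPM in the 3 mutants. The controls were nearly equal, mutant replicate 1 was above them and the other mutants were below (log2 fold change -0.17, SE 0.10, edgeR adjusted p = 0.216). Top2a, topoisomerase II alpha, which untangles chromosomes, had 518, 446 and 458 CPM in the 3 controls and 443, 360.1 and 381 CPM in the 3 mutants. Its groups did not overlap, by a narrow margin (log2 fold change -0.26, SE 0.10, edgeR adjusted p = 0.0727). Without mutant replicate 1 both were called lower (adjusted p = 0.0115 for Mki67 and 0.0206 for Top2a).

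Per kilobase of annotated exon, the highest mean levels in the controls were those of Cdc20 (64.7 CPM per kilobase), Top2a (52.6), Ccnb2 (48.2), Mki67 (47.4) and Ube2c (45.2). The lowest were those of Kif18a (2.86), Cdc25c (5.31), Ndc80 (6.39) and Kif15 (6.71). Cdc20 and Top2a also led in the mutants (54.4 and 43.8 CPM per kilobase), and Kif18a was lowest there as well (1.94). Exon length was taken over all annotated transcripts, so levels of genes with long unused exons are understated. Across the 39 genes, which share libraries and are not independent, the fold change had a Spearman rho of 0.18 with exon length, 0.26 with GC content and 0.13 with control level per kilobase, given as a description.

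Ratios of partners within a library do not depend on how libraries are scaled. The pairs below were chosen after their values were seen, so they carry no test. The log2 ratio of Birc5 to Aurkb, both of the passenger complex, was 0.4, 0.48 and 0.46 in the 3 controls and -0.05, -0.01 and 0.1 in the mutants. That of Tpx2 to the kinase it activates, Aurka, was 1.51, 1.57 and 1.47 in the controls and 1.05, 1.22 and 1.19 in the mutants. In both pairs the groups were apart, mutant replicate 1 included. Ccnb1 over Ccnb2 went from 0.95 ± 0.14 to 0.6 ± 0.15, and Spc25 over Nuf2 from 0.14 ± 0.14 to -0.23 ± 0.14 (SD, n = 3 each). Ccnb1 over Mki67 was -1.66, -1.74 and -1.83 in the controls and -2.42, -2.2 and -2.08 in the mutants.

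Other genes of the cell cycle, on 8 lists of 209 genes in all, were set beside the 39. Of these, 122 were called lower and 12 higher, against 21.7% and 24.1% of all genes tested. Of 38 other kinetochore and centromere genes, 27 fell and 11 did not pass, with a median of -0.48 on the log2 scale. Zwint, a kinetochore protein that binds the checkpoint platform, had 111, 103 and 98.6 CPM in the 3 controls and 58.9, 50.3 and 56.9 CPM in the 3 mutants, with no overlap (log2 fold change -0.91, SE 0.08, edgeR adjusted p = 0.000371). Ska2, of a complex that tracks microtubules (-0.77, SE 0.08), and Mis12, a kinetochore protein (-0.67, SE 0.08), fell as well. Of 36 other regulators of entry and exit, 22 fell and 1 rose (median -0.31). Cks2, a small partner of CDK1 (-0.84, SE 0.07), Fbxo5, an inhibitor of the anaphase-promoting complex (-0.78, SE 0.08), and Cdc25a, a phosphatase of cyclin-dependent kinases (-0.58, SE 0.07), had the smallest p. The 1 that rose was Cdc14a (1.35, SE 0.18), a phosphatase. Of 21 condensin and cohesin genes 10 fell (median -0.24), led by Ncapg (-0.71, SE 0.10), Smc1a (-0.43, SE 0.06) and Smc2 (-0.53, SE 0.09). Of 43 other spindle and centrosome genes 17 fell and 7 rose (median -0.22). The 3 with the smallest p were Nek2 (1.10, SE 0.09) and Kif24 (1.24, SE 0.14), which rose, and Haus7 (-0.81, SE 0.08), which fell. Rcc1 (-0.66, SE 0.08) and Kifc1 (-0.54, SE 0.08) were next among the falls.

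Genes of earlier cell cycle phases were lower too. Of 40 DNA replication genes 36 fell and 4 did not pass (median -0.55). Rpa2, a protein that coats single-stranded DNA, had 78.3, 76.0 and 74.1 CPM in the 3 controls and 44.0, 37.1 and 41.6 CPM in the 3 mutants, with no overlap (log2 fold change -0.90, SE 0.08, edgeR adjusted p = 0.00035). Rfc4, a clamp loader subunit (-1.24, SE 0.12), and Tk1, thymidine kinase (-0.64, SE 0.07), followed. Of 12 G1 cyclins, kinases and E2F genes 6 fell (median -0.47), led by Ccne1, cyclin E1 (-0.73, SE 0.07), Cdc25a and E2f1 (-0.50, SE 0.07). Of 12 genes of the DREAM and MuvB complexes, which bind the CHR, 5 fell and 1 rose (median -0.23). These were Rbbp4 (-0.73, SE 0.10), E2f5 (-0.43, SE 0.10), Tfdp1 (-0.28, SE 0.07), E2f4 (-0.24, SE 0.07), Mybl2 (-0.40, SE 0.12) and, higher, Rbl2 (0.25, SE 0.07). The number of these genes called lower was 3 without control replicate 2, mutant replicate 2 or mutant replicate 3, and Rbl2 lost its call when any 1 library other than mutant replicate 1 was left out. Of 8 genes that restrain the cycle 3 rose: Rb1, the retinoblastoma protein (0.75, SE 0.12), Cdkn1a, which encodes p21 (1.40, SE 0.22), and Cdkn2b (1.04, SE 0.31). Over all genes tested 24.1% were called higher, and the median of the 8 was 0.0. Their summed level in the mutants was 73.1% of that in the controls. Most of that sum came from Cdkn1c, with means of 1311 CPM in the controls and 808 CPM in the mutants. Cdkn1a had 36.8, 59.2 and 72.4 CPM in the 3 controls and 152, 138 and 155 CPM in the 3 mutants, and every mutant was higher. Cdkn2b lost its call without control replicate 3, mutant replicate 1 or mutant replicate 3. The other 5 did not pass, among them Cdkn1c (-0.70, SE 0.25, adjusted p = 0.053) and Cdkn1b (-0.01, SE 0.06).

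**Figure D5:**
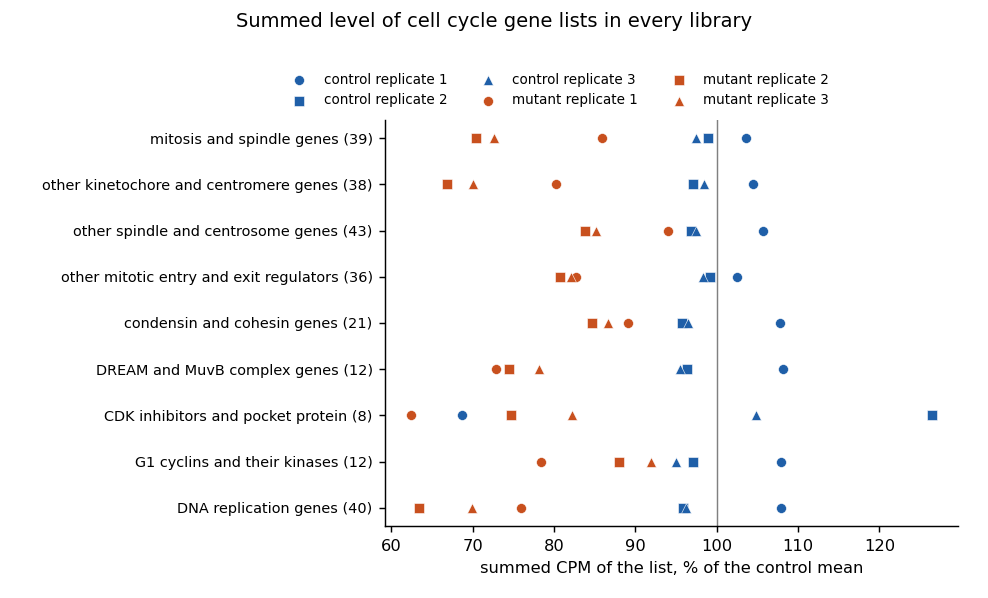
Summed CPM of the 39 mitosis and spindle genes and of 8 other cell cycle lists (number of genes in brackets) in each library, as a percent of the control mean. The mitosis sum in the mutants was 76.3% of that in the controls on average, and mutant replicate 1 is the highest mutant on that line.

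Summed over the 39 genes, the level was 4725, 4516 and 4449 CPM in the 3 controls and 3919, 3213 and 3315 CPM in the 3 mutants. Markers of several other cell types differed between the groups beside this. Of all genes tested, 21.7% were called lower and 24.1% higher. All 12 epithelial markers were called higher, with a summed level of 1094 to 1827 CPM in the controls and 5934 to 6721 CPM in the mutants. All 9 macrophage markers in the files rose (76.6 to 137 CPM against 340.1 to 444 CPM), as did all 6 markers of motile ciliated cells in the files (299.6 to 445 CPM against 988 to 1339 CPM). Of 8 osteoblast markers 7 were tested and fell (867 to 3366 CPM against 260.5 to 473 CPM). Of 8 muscle markers 7 were tested and fell (6.03 to 66.4 CPM against 2.51 to 2.98 CPM, with Myf5 at 0 in every mutant). Of 8 red blood cell markers 6 were tested and 4 fell (218 to 644 CPM against 28.3 to 39.7 CPM, with Hba-a1 and Hba-a2 at 0 in every library). Of 8 nerve and glia markers 4 fell (71.0 to 139.5 CPM against 39.9 to 65.2 CPM). Of 8 endothelial markers 1 rose, a smaller share than over all genes tested, and their sums overlapped (428 to 559 CPM against 487 to 668 CPM). Of 8 markers of palatal mesenchyme 3 fell, and their sums overlapped (5216 to 9800 CPM in the controls and 6748 to 6921 CPM in the mutants). The part of these cell types in the lower level of mitosis genes was not tested.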

How the data were processed

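Counts per gene symbol were deposited by the authors as whole numbers, 1 file per library. Tools and builds listed, per the submitters' processing notes, are HISAT2, StringTie, mm9 and mm10, with no role or version. Headers of the counts name HISAT2 for 4 of the 6 libraries. Whether the others were processed in the same way is not stated. The counting program, annotation and strand setting were not given in the sources used here. All counts were used as deposited. Genes were filtered with filterByExpr, scaled with TMM and tested with the quasi-likelihood F test of edgeR 4.0.16 in R 4.3.3, mutant against control, without a covariate. Standard errors are the absolute log2 fold change over the square root of F. The main edgeR fit was also run on counts simulated from its own fitted means, library sizes and spread. Such counts hold no odd library, so that run cannot speak to one. The other settings, the lists and the promoter steps were not simulated.

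All 39 genes are named. Values in every library are given for the 2 genes of each role with the smallest p and the 3 genes with the largest p. Of each other list up to 3 called genes with the smallest p are named, and more where 5 or fewer were called in a direction or after their values were seen. Genes, roles and lists were chosen with earlier results of these data known. For 8 list genes an older symbol stood in the files. Exon length, GC content and gene positions came from GENCODE M21 (98.5% of symbols matched). Alternatives covered scaling, DESeq2 1.42.0, limma 3.58.1, low count filters, a replicate block, a Y-linked covariate, GC content and length, a 1.2-fold threshold and left-out libraries.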

Additional observations from a re-analysis of the deposited data

How the results depend on the processing

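Under the 19 alternative settings the number of the 39 genes called lower lay between 20 (against a 1.2-fold change) and 37, none was called higher, and the median stayed between -0.54 and -0.4 on the log2 scale. Leaving out 1 library gave 22 to 37 genes and medians of -0.54 to -0.43. In all 19 settings 20 genes were called lower. The other 8 called genes (Ccna2, Ccnb2, Plk1, Incenp, Nuf2, Kif18a, Kif4 and Prc1) lost the call in at least 1, and 9 of the 11 others were called lower in at least 1. Scaled by library size only, 23 were called, 37 were below 0 and the median of all genes moved to 0.06. With the Y-linked covariate 22 were called. Anln turned to -0.04 with the Y-linked covariate and to -0.03 without mutant replicate 1 (leave-one-out range -0.03 to 0.1). Ect2 turned to 0.01 with library size only, 0.08 with the GC and length correction, 0.08 with that correction and the replicate block, and 0.02 without control replicate 1 (leave-one-out range -0.12 to 0.02). The cause was not tested.

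The replicate block gave 30 genes called lower and, with the GC and length correction, 31. The deviations of same-numbered libraries from their group means correlated at 0.081, 0.082 and 0.02, so the numbers were not taken to pair the libraries, and control replicate 3 correlated best with mutant replicate 2 (0.048). Of the other cell cycle genes 79 were called lower and 7 higher against a 1.2-fold change, 7 higher with the Y-linked covariate, and 20 higher without replicate 1 of both groups. By list, the number lower ran from 17 to 33 for kinetochore genes, 13 to 25 for spindle, 13 to 24 for entry and exit, 4 to 13 for condensin and cohesin, 1 to 5 for DREAM and 27 to 37 for replication genes. The number higher reached 5 for condensin and cohesin and 3 for the G1 list, both without replicate 1 of both groups, and ran from 3 to 8 for spindle genes. On the list of CDK inhibitors and Rb1, 2 genes rose in place of 3 with the replicate block, the GC and length correction (with or without the block), the 1.2-fold threshold or without replicate 1 of both groups, and 0 to 2 were called lower over the settings (2 with the GC and length correction). Cdkn2b also lost its call when control replicate 3, mutant replicate 1 or mutant replicate 3 was left out. All 39 genes had at least 825 counts in every library, so counting error was small. Depth differed along the groups, and its part in the calls was not tested. With 3 libraries a group and 1 library apart, calls could depend on which libraries were kept. Among the 39 genes this was so for most with log2 changes near 0.3 or smaller, and for Nuf2 (-0.39), Kif4 (-0.46) and Kif18a (-0.56).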

Other observations

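The 7 genes of the spindle and centrosome list that rose, Nek2, Kif24, Tubgcp3, Stil, Plk4, Sass6 and Cep152, are 16.3% of its 43 genes, below the 24.1% of all genes tested that were called higher. Apart from Nek2 and Kif24, which were among the genes of the list with the smallest p, they are named here after their values were seen. Nek2, a kinase that splits centrosomes, had 36.8, 39.8 and 44.2 CPM in the 3 controls and 80.1, 92.4 and 86.9 CPM in the 3 mutants (log2 fold change 1.10, SE 0.09, edgeR adjusted p = 0.00028). Kif24, a kinesin that restrains ciliation at the mother centriole, had 18.6, 13.9 and 16.3 CPM in the 3 controls and 43.5, 37.1 and 34.7 CPM in the 3 mutants (log2 fold change 1.24, SE 0.14, edgeR adjusted p = 0.000645). Stil, a centriole assembly factor, had 29.6, 27.3 and 30.8 CPM in the 3 controls and 60.1, 43.3 and 40.8 CPM in the 3 mutants (log2 fold change 0.72, SE 0.15, edgeR adjusted p = 0.00742). Every mutant was above every control for each of the 7, as for 29.7% of all genes tested. Since the 7 were picked by their call, this adds no support. Plk4, the kinase that starts centriole duplication (0.31, SE 0.07), Sass6, which forms the cartwheel (0.42, SE 0.10), Cep152 (0.53, SE 0.14) and Tubgcp3, of the gamma-tubulin ring (0.57, SE 0.09), rose as well. Other centrosome genes of the list did not move with them. Haus7 (-0.81, SE 0.08), Haus8 (-0.54, SE 0.09), Haus1 (-0.51, SE 0.09), Haus3 (-0.50, SE 0.11) and Ckap5 (-0.22, SE 0.07) fell. The remaining Haus genes, Haus4 (-0.43, SE 0.16), Haus6 (-0.39, SE 0.15), Haus5 (-0.20, SE 0.13) and Haus2 (0.01, SE 0.13), did not pass. Nor did Cep192 (-0.05, SE 0.07), Tubg1 (-0.04, SE 0.07), Tubgcp2 (0.03, SE 0.10) and Nedd1 (-0.20, SE 0.07). The count of higher genes on this list was 4 against a 1.2-fold change and 3 with the Y-linked covariate. All 6 markers of motile ciliated cells in the files were higher too, at 299.6 to 445 CPM in the controls and 988 to 1339 CPM in the mutants. Their part in the rise was not tested.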
